A study of Mus musculus with 6 samples.

Results

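The 10 genes described here are the core cardiac transcription factors and a coactivator, *Gata4*, *Gata6*, *Tbx5*, *Tbx20*, *Nkx2-5*, *Hand2*, *Meis1*, *Tead1*, *Srf* and *Ep300*. They were chosen by name, and each matched 1 gene symbol among the 21776 genes of the deposited table. RNA was sequenced from adult mouse hearts that lack the long non-coding RNA *Trdn-as* (*Trdn-as* KO, 3 samples) and from wild-type hearts (WT, 3 samples). *Trdn-as* runs opposite to *Trdn*, which encodes triadin of the cardiac calcium release complex. The study examined several of these factors at the *Trdn-as* promoter and its enhancers, and the comparison made here is whether the RNA of the factors themselves differed between the genotypes. None of the 10 differed at an adjusted p under 0.05.

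The *Trdn-as* KO mice carried a polyadenylation signal inserted with Cas9 into the first exon of *Trdn-as* in embryonic stem cells, and the mutant line was bred to the C57BL/6 background. WT mice carried the unmodified allele. By this construction the allele is present in all cells of the animal and is not restricted by a promoter or a Cre driver, although the short description of the series speaks of cardiomyocytes. The exact age, the sex and any pooling of animals were not given in the sources used here. P-values from limma weigh the difference between the group means against the spread within groups. That spread was estimated from these 6 samples together with the spread of all genes tested.

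The heart is built and maintained by a small group of transcription factors that bind DNA together. GATA zinc finger proteins, T-box proteins, the homeodomain protein NKX2-5 and the helix-loop-helix protein HAND2 occupy shared enhancers in cardiomyocytes, where they act with the homeodomain protein MEIS1, with TEAD1, which carries the coactivator YAP to DNA, and with SRF, which binds the CArG box of muscle genes. EP300 is the acetyltransferase that these factors recruit to active enhancers.

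Values are read counts per gene, divided by the size factor of the library and rounded, so a difference between hearts is relative to the other genes of the same library. The libraries held an estimated 2.59 M to 3.62 M counted reads, and the members an estimated 80.3 to 1929 reads per heart. *Trdn-as*, named AC157017.2 in the table, was listed at 1, 0 and 1 in the KO group and at 690, 773 and 688 in the WT group, as the labels say. *Trdn* lay at 2489, 2381 and 2551 in KO and at 1541, 1541 and 1516 in WT hearts. Y-linked genes were expressed in all 6 hearts and *Xist* did not pass a value of 4, so the genotypes did not differ in sex by these genes.

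The DNA near the start of the genes is shown for *Nkx2-5* and *Tbx20*, which had the smallest p-values of the members, for *Srf*, whose promoter carries its own factor's motif, and for *Trdn-as*, the locus at which the factors were studied. The first 3 sequences run from 250 bases before to 50 bases after the annotated start (RefSeq, GRCm38.p6). The last is exon 1 of the longer-reaching transcript of *Trdn-as* in GENCODE M21 (GRCm38), the exon that received the polyadenylation signal in the KO. All 4 are reference sequences and read 5′ to 3′ on the strand of the gene. Capitals mark matches, on either strand, to the GATA motif AGATAA, the TEAD motif GGAATG, the NKX2-5 motif TNAAGTG, the T-box motif AGGTGT, the MEIS motif TGACAG and the CArG box. No marked matches overlap.
Nkx2-5, chr17:26841516-26841815, minus strand: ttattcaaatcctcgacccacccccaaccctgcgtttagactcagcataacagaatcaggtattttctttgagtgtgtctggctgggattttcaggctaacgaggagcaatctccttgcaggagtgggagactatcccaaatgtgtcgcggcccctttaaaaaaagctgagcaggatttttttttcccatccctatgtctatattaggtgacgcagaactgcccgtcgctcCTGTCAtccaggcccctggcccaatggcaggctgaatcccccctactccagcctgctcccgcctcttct
Tbx20, chr9:24774254-24774553, minus strand: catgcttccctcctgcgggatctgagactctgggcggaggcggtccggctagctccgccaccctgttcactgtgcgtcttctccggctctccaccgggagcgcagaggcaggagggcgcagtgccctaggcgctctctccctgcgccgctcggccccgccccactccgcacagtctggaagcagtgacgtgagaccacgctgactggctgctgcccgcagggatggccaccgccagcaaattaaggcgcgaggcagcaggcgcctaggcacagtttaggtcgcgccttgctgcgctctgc
Srf, chr17:46556113-46556412, minus strand: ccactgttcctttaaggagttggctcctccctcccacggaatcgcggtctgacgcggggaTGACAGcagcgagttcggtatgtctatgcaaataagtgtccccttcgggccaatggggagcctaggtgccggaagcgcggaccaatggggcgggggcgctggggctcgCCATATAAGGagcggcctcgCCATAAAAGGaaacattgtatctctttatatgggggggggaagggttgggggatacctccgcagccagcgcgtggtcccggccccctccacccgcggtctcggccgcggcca
Trdn-as exon 1, chr10:33256190-33256418, minus strand: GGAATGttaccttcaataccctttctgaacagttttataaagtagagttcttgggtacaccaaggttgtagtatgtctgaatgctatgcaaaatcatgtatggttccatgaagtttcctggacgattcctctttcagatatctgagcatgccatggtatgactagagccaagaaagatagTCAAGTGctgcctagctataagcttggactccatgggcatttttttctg

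Promoter windows were searched for 6 of the 10 members, and not for *Gata4*, *Gata6*, *Tbx5* and *Tead1*. The *Srf* window carried 2 CArG boxes, CCATATAAGG from 82 to 73 bases and CCATAAAAGG from 62 to 53 bases before the start, whereas 1.64% of all 32544 promoter windows of this length held a CArG box. The MEIS motif occurred in the *Srf* and the *Nkx2-5* windows and in 19.1% of all windows. The *Hand2* window held a GATA motif, found in 11.2% of all windows, and the *Meis1* window an NKX2-5 motif, found in 11.5%. The *Tbx20* and *Ep300* windows held none of these letters. None of the 6 windows searched held the TEAD motif (14.6% of all windows) or the T-box motif (13.8%). The first 6 bases of *Trdn-as* exon 1 are the TEAD motif, and bases 181 to 187 match the NKX2-5 motif. Of 125515 annotated transcript starts of 229 bases, 11.1% held the TEAD motif and 9.05% the NKX2-5 motif. These matches describe letters, and binding of the factors to them was not tested here.

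All 10 members entered the limma test, whose 13753 genes had a mean of at least 10. At an adjusted p under 0.05, 0 members were called, against 0.0291% of all genes tested (4 genes). Over all genes, 32 passed when KO replicate 1 was left out, 7 when WT replicate 3 was, 2 when KO replicate 2 or WT replicate 1 was, 2 with a filter of at least 10 in every sample and 1 without the mean-variance trend, and 0 members were among them. At an unadjusted p under 0.05, 2 members were called, *Nkx2-5* and *Tbx20*, both lower in KO, against 5.74% of all genes. This count was 3 without WT replicate 3, 1 without KO replicate 1 or WT replicate 2, 0 without KO replicate 2 and 1 without the mean-variance trend. In 3 members, *Nkx2-5*, *Tbx20* and *Tead1*, all KO hearts lay below all WT hearts, against 4.44% of all genes tested. In 0 members did all KO hearts lie above all WT hearts, against 4.64% of all genes. The mean was lower in KO in 7 members and higher in 3, against 49.4% of all genes lower in KO. The median log2 fold change of the members was -0.10, and that of all genes tested was 0.00. The median of the members was -0.04 without WT replicate 1, -0.07 without KO replicate 3 and -0.13 without WT replicate 3.

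Expression level bears on how small a difference can be seen. The median standard error of the log2 fold change was 0.07 for the members and 0.12 for all genes. Of the 7054 genes whose mean value lay in the range of the members, 96.7 to 1708, 5.64% had an unadjusted p under 0.05, and in 4.68% all KO hearts lay below all WT hearts. The 95% confidence intervals of the 10 members together reached from 0.660 to 1.16 of the WT level, so that larger differences lie outside the interval of every member.

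**Figure D1:**
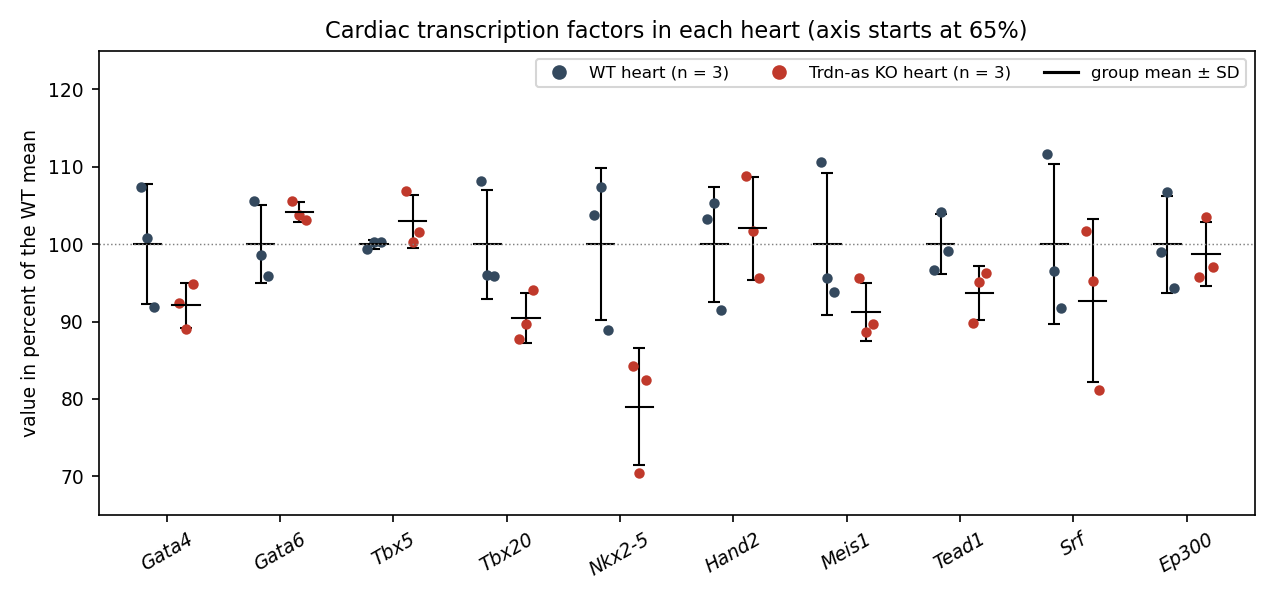
Value of each of the 10 genes in each heart, in percent of the mean of the 3 WT hearts (vertical axis, starting at 65%), with points for hearts and black bars for the group mean ± SD, n = 3. *Nkx2-5*, *Tbx20* and *Tead1* are the genes in which the KO and WT points do not overlap.

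NKX2-5 is the homeodomain factor at the top of the cardiac programme, required for looping of the embryonic heart and for the conduction system. *Nkx2-5* (ENSMUSG00000015579, chr17:26838664-26841565) read 91, 76 and 89 in the KO group against 112, 116 and 96 in the WT group. All 3 KO hearts were below the lowest WT heart, by a narrow margin. The means were 85.3 ± 8.15 (SD, n = 3) in KO and 108 ± 10.6 in WT (SD, n = 3), which is a ratio of 0.790. The log2 fold change was -0.34 (SE 0.13, 95% interval -0.60 to -0.07), with an unadjusted limma p of 0.0147 and an adjusted p of 0.807, which ranks it 239 of 13753 genes. *Nkx2-5* was the member with the lowest value, and counting alone gives its mean library a coefficient of variation of 10.2%. Without KO replicate 2, its lowest heart, the log2 fold change was -0.26 (unadjusted p = 0.0717), and without WT replicate 2, its highest, -0.28 (unadjusted p = 0.0719).

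TBX20 is the T-box factor that adult cardiomyocytes need to keep their contractile and ion channel genes on. *Tbx20* (ENSMUSG00000031965, chr9:24718138-24774303) had values of 903, 923 and 968 in KO and of 1113, 988 and 987 in WT hearts. The KO hearts were again all lower, although the highest of them came close to the lower WT hearts. The means were 931 ± 33.3 and 1029 ± 72.5 (SD, n = 3 each), a ratio of 0.905, and the log2 fold change was -0.14 (SE 0.06, 95% interval -0.27 to -0.01, unadjusted p = 0.0317, adjusted p = 0.851, limma). Without WT replicate 1, its highest heart, it was -0.085 (unadjusted p = 0.164). It was -0.12 without KO replicate 1 (unadjusted p = 0.0982) and -0.14 without KO replicate 2 (unadjusted p = 0.0702). Without the mean-variance trend of limma, *Tbx20* had an unadjusted p of 0.137. The related T-box factor *Tbx5* (ENSMUSG00000018263, chr5:119834663-119885219), which pairs with NKX2-5 and GATA4 on cardiac promoters, had 327, 307 and 311 in KO and 304, 307 and 307 in WT hearts. These groups overlap, and the WT hearts differed by no more than 3 (SD 1.73). The log2 fold change of *Tbx5* was 0.04 (95% interval -0.11 to 0.19, unadjusted p = 0.573), and 0.01 without KO replicate 1.

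GATA4 and GATA6 are the zinc finger factors of the myocardium, and they act redundantly in heart development. *Gata4* (ENSMUSG00000021944, chr14:63198922-63245271) had values of 377, 363 and 387 in KO and 438, 411 and 375 in WT hearts. *Gata6* (ENSMUSG00000005836, chr18:11052510-11085635) had 304, 299 and 297 in KO and 304, 284 and 276 in WT hearts. Both genes overlapped between the genotypes, with means of 376 ± 12.1 and 408 ± 31.6 for *Gata4* and of 300.0 ± 3.61 and 288 ± 14.4 for *Gata6* (SD, n = 3 each). The log2 fold changes were -0.12 (SE 0.07, unadjusted p = 0.128) for *Gata4* and 0.06 (SE 0.07, unadjusted p = 0.431) for *Gata6*. For *Gata4* it was -0.06 without WT replicate 1 and -0.18 without WT replicate 3, and for *Gata6* 0.10 and 0.03 without these hearts. Leaving out WT replicate 3 took *Gata4* to an adjusted p of 0.531 in limma (unadjusted p = 0.0296). Per exonic length, *Gata4* exceeded *Gata6* 2.09-fold in KO (SD 0.0763, n = 3) and 2.36-fold in WT hearts (SD 0.0823, n = 3). This ratio was looked at after the values were seen and was not tested.

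HAND2 is the helix-loop-helix factor of the right ventricle and the outflow tract. *Hand2* (ENSMUSG00000038193, chr8:57320983-57324633) had values of 213, 199 and 187 in KO and 202, 206 and 179 in WT hearts, and the groups overlap. Its log2 fold change was 0.03 (SE 0.09, 95% interval -0.16 to 0.22, unadjusted p = 0.747), and its sign turned when KO replicate 1 (-0.02) or WT replicate 3 (-0.03) was left out. MEIS1 is a TALE homeodomain factor that takes part in the cell cycle exit of cardiomyocytes after birth. *Meis1* (ENSMUSG00000020160, chr11:18879817-19018985) had 274, 254 and 257 in KO and 317, 274 and 269 in WT hearts. These ranges overlap through the KO heart with the highest value, and the log2 fold change was -0.13 (SE 0.08, 95% interval -0.30 to 0.04, unadjusted p = 0.136), or -0.05 without WT replicate 1.

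TEAD1 is the DNA-binding partner of YAP and the transcription factor of the M-CAT element of muscle genes. *Tead1* (ENSMUSG00000055320, chr7:112679318-112906807) had values of 1583, 1677 and 1699 in KO and 1704, 1838 and 1749 in WT hearts. The groups did not overlap, but the highest KO heart and the lowest WT heart were almost level. The means were 1653 ± 61.6 and 1764 ± 68.2 (SD, n = 3 each), a ratio of 0.937. The log2 fold change was -0.09 (SE 0.05, 95% interval -0.21 to 0.02), with an unadjusted p of 0.103, and therefore did not pass the test before any adjustment.

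SRF drives actin and other contractile genes, together with myocardin. *Srf* (ENSMUSG00000015605, chr17:46546839-46556162), the gene with 2 CArG boxes in the window shown above, had values of 297, 278 and 237 in KO and 326, 282 and 268 in WT hearts. The groups overlap, and the spread among KO hearts was the widest of the 10 members relative to the mean, at 11.3%. Its log2 fold change was -0.11 (SE 0.09, 95% interval -0.31 to 0.08, unadjusted p = 0.251). With single hearts left out this value ranged from -0.18 without KO replicate 1 to -0.02 without KO replicate 3, and it was -0.17 without WT replicate 3 and -0.03 without WT replicate 1. *Ep300* (ENSMUSG00000055024, chr15:81585397-81652077) had 781, 844 and 791 in KO and 807, 870 and 769 in WT hearts. Its log2 fold change of -0.02 (SE 0.06, 95% interval -0.15 to 0.11, unadjusted p = 0.792) was the closest to 0 of the members. It turned to 0.01 when all libraries were scaled to the same total, to 0.005 without KO replicate 1 and to 0.03 without WT replicate 2.

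**Figure D2:**
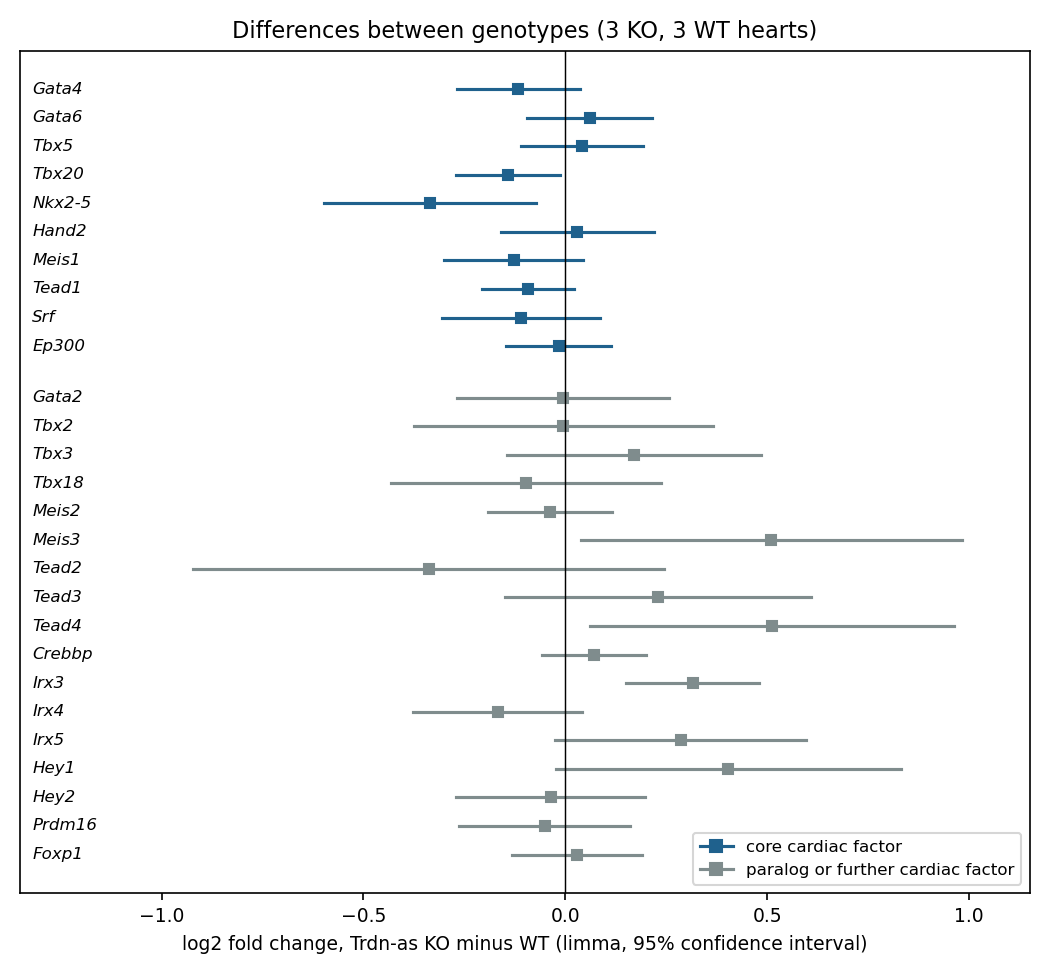
Log2 fold change of KO against WT (horizontal axis) with its 95% confidence interval from limma, for the 10 members (blue) and the 17 tested paralogs and further cardiac factors (grey), 3 hearts per genotype. The intervals of *Nkx2-5* and *Tbx20* lie below 0, and those of *Irx3*, *Tead4* and *Meis3* lie above 0 before adjustment over all genes.

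The members differed more from each other than between the genotypes. Values were divided by the union of annotated exons in kilobases to compare genes, which gives a level per exonic kilobase. In WT hearts *Tead1* was the highest, at 130.0 ± 5.03 (SD, n = 3), and did not overlap with any other member. It was followed by *Gata4* (104.5 ± 8.10), *Srf* (100.9 ± 10.5), *Tbx20* (85.8 ± 6.04) and *Hand2* (83.2 ± 6.20), and each neighbouring pair among these genes overlapped. A lower set followed with *Tbx5* (65.5 ± 0.371), *Nkx2-5* (62.8 ± 6.16) and *Ep300* (57.1 ± 3.57), again overlapping from neighbour to neighbour. *Gata6* (44.3 ± 2.22) and *Meis1* (27.2 ± 2.51) were below all of these and apart from each other. Among all genes tested, the members lay from the 52.2 percentile (*Meis1*) to the 93.4 percentile (*Tead1*) of the WT level per kilobase. In KO hearts *Tead1* again had the highest and *Meis1* the lowest level, at 121.8 ± 4.54 and 24.8 ± 1.02. The level of *Nkx2-5* in KO hearts, 49.6 ± 4.74, was below that of *Ep300*, 56.4 ± 2.37, and these ranges did not overlap, whereas in WT hearts the order of these genes was the opposite, with overlap.

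**Figure D3:**
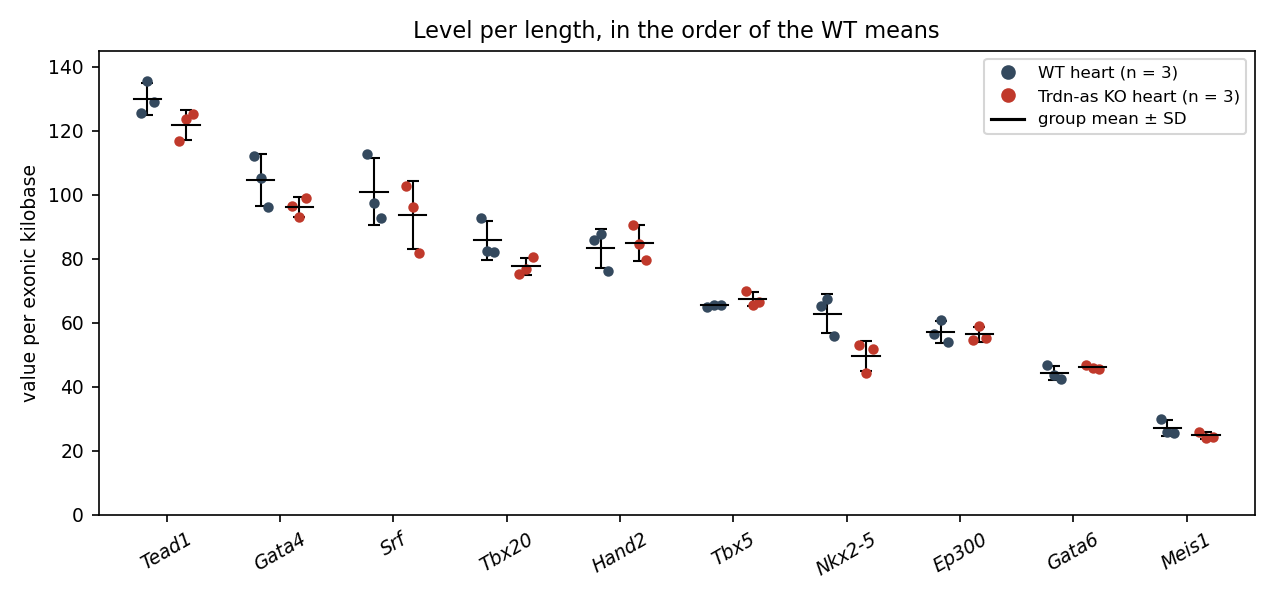
Level per exonic kilobase (vertical axis, starting at 0) of the 10 members in each heart, ordered by the WT mean, with points for hearts and black bars for the group mean ± SD, n = 3. *Tead1* stands at the top with 130.0 in WT hearts and *Meis1* at the bottom with 27.2.

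The relatives of the members put these levels in context. *Gata5* was listed at 3, 7 and 4 in KO and at 3, 0 and 3 in WT hearts, under the filter, and *Gata2*, a factor of blood and endothelium, reached a level of 16.9 ± 1.93 per kilobase in WT hearts. *Tead1* was the main TEAD gene, since *Tead2*, *Tead3* and *Tead4* had WT levels of 4.53 ± 1.28, 8.34 ± 2.09 and 8.15 ± 2.09 per kilobase. *Meis2* had a WT level of 29.3 ± 2.00. Within single hearts the ratio of *Meis1* to *Meis2* per exonic length ranged from 0.840 (KO replicate 3) to 0.964 (WT replicate 1), so *Meis1* was the lower of these genes in every heart. *Crebbp*, the paralog of *Ep300*, had a WT level of 82.3 ± 4.36. *Hand1* and *Nkx2-6* were not listed under these symbols among the 21776 genes and could not be compared.

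Of the list of 22 paralogs and further cardiac factors, 20 were found by symbol and 17 were tested, of which 9 were higher and 8 lower in KO. The median of their log2 fold changes was 0.03. By limma, 0 passed an adjusted p of 0.05 and 3 had an unadjusted p under 0.05, against 5.74% of all genes tested. The 3 genes were *Irx3*, *Tead4* and *Meis3*, all higher in KO. This count was 5 without KO replicate 1 and 1 without KO replicate 2, WT replicate 1 or WT replicate 2. IRX3 is an Iroquois homeodomain factor of the ventricular conduction system. *Irx3* had values of 302, 330 and 335 in KO and 254, 246 and 277 in WT hearts, with no overlap. Its log2 fold change was 0.31 (SE 0.08, unadjusted p = 0.00074, adjusted p = 0.518). *Tead4* had 39, 49 and 37 in KO and 29, 22 and 37 in WT hearts, with 1 value shared by the groups, and a log2 fold change of 0.51 (SE 0.22, unadjusted p = 0.0283, adjusted p = 0.851). *Meis3* had 27, 33 and 42 in KO and 21, 22 and 27 in WT hearts, also with a shared value, and a log2 fold change of 0.51 (SE 0.23, unadjusted p = 0.0356, adjusted p = 0.851). The other tested family members had log2 fold changes of -0.01 for *Gata2*, -0.01 for *Tbx2*, 0.17 for *Tbx3*, -0.10 for *Tbx18*, -0.04 for *Meis2*, -0.34 for *Tead2*, 0.23 for *Tead3* and 0.07 for *Crebbp*.

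Partners and cofactors were followed in a list of 27 genes, of which 26 were tested, 14 higher and 12 lower in KO. The median of their log2 fold changes was 0.01. By limma, 0 passed an adjusted p of 0.05 and 3 had an unadjusted p under 0.05, against 5.74% of all genes tested. This count was 0 without KO replicate 2 or without the mean-variance trend, and 1 without KO replicate 3 or WT replicate 1. *Myocd*, the gene of myocardin, the SRF coactivator of heart and smooth muscle, had values of 799, 655 and 648 in KO and 880, 773 and 776 in WT hearts. The highest KO heart lay between the WT hearts, and the log2 fold change was -0.21 (SE 0.08, unadjusted p = 0.0125, adjusted p = 0.807). *Pknox2*, a TALE homeodomain relative of MEIS1, had a log2 fold change of -0.32 (unadjusted p = 0.0416), and *Tcf3*, whose protein pairs with HAND2, had 0.21 (unadjusted p = 0.0450). The SRF coactivators of the MRTF family had log2 fold changes of 0.03 (*Mkl1*) and -0.10 (*Mkl2*). The TEAD coactivators *Yap1* and *Wwtr1* had 0.02 and 0.06, their antagonist *Vgll4* had 0.01, and the GATA4 cofactor *Zfpm2* had -0.03.

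The known targets of the factors were described in 3 lists. Of 11 targets of GATA4, NKX2-5 and TBX5, 9 were lower and 2 higher in KO, against 49.4% of all genes tested lower in KO. The median of their log2 fold changes was -0.15. *Myh6* and *Tnni3* of this list are also among the cardiomyocyte markers below, *Nppa* and *Myl7* among the atrial markers, and *Actc1* in the SRF list. Of the 11 targets, 0 passed an adjusted p of 0.05 in limma and 4 had an unadjusted p under 0.05, against 5.74% of all genes tested. Without WT replicate 3 there were 7, without WT replicate 1 there were 0, and without KO replicate 1, KO replicate 2 or WT replicate 2 there was 1. Without the mean-variance trend there were also 0. The 4 genes were *Nppb*, which encodes the natriuretic peptide BNP (-0.33, unadjusted p = 0.00888), *Tnnc1*, which encodes cardiac troponin C (-0.17, unadjusted p = 0.0327), *Myh6*, the alpha myosin heavy chain gene (-0.16, unadjusted p = 0.0365), and *Atp2a2*, which encodes the calcium pump SERCA2 (-0.16, unadjusted p = 0.0381). *Nppb* had values of 190, 163 and 146 in KO and 245, 198 and 185 in WT hearts, which overlap through the highest KO and the lowest WT heart.

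Of 9 targets of TEAD and YAP, 5 were higher and 4 lower, with a median of 0.02, and of 11 targets of SRF, 3 were higher and 8 lower, with a median of -0.11. Of all genes tested, 49.4% were lower in KO. In each of these lists 0 genes passed an adjusted p of 0.05 in limma, and 1 and 3 had an unadjusted p under 0.05, against 5.74% of all genes tested. The count for targets of TEAD and YAP was 3 without KO replicate 1 or WT replicate 2 and 2 without WT replicate 3. *Acta1*, the skeletal alpha-actin gene, is in both lists and had 386, 342 and 334 in KO and 541, 406 and 567 in WT hearts. The KO hearts were all lower, and the log2 fold change was -0.50 (SE 0.10, unadjusted p = 6.44e-05, adjusted p = 0.148). *Des*, the gene of the intermediate filament desmin, had a log2 fold change of -0.14 (unadjusted p = 0.0426), and the early response gene *Fos* had a higher mean in KO (95% interval of the log2 fold change 0.48 to 1.88, unadjusted p = 0.00215, adjusted p = 0.689), from values of 44, 19 and 54 in KO and 10, 23 and 15 in WT hearts.

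Markers of cardiomyocytes had lower means in KO, as did the members with the lowest p-values. The values of the genotypes overlapped in every cardiomyocyte marker except *Ryr2*. All 6 markers (*Myh6*, *Tnnt2*, *Tnni3*, *Actn2*, *Ryr2* and *Pln*) were lower in KO, against 49.4% of all genes tested, with log2 fold changes from -0.16 to -0.14. In limma 0 passed an adjusted p of 0.05, while 5 had an unadjusted p under 0.05, against 5.74% of all genes tested. Besides *Myh6*, these were *Ryr2* (log2 fold change -0.15, unadjusted p = 0.0196), *Actn2* (-0.14, unadjusted p = 0.0420), *Pln* (-0.15, unadjusted p = 0.0445) and *Tnnt2* (-0.16, unadjusted p = 0.0476). The count of 5 was 0 without KO replicate 1 or WT replicate 2, and 1 without KO replicate 2 or WT replicate 1. It was 0 without the mean-variance trend, 2 with all libraries scaled to the same total and 3 with a replicate block. The summed values of the 6 markers were 20078, 20903 and 21339 in KO and 25493, 23044 and 20899 in WT hearts. WT replicate 1 was the highest of the 6 and WT replicate 3 lay within the KO range. WT replicate 1 alone had the highest value in 4 of the 10 members and shared it with a KO heart in *Gata6*, while it alone was highest in 20.1% of all genes tested. WT replicate 2 alone was highest in 3 members, *Nkx2-5* and *Tead1* among them, and in 11.5% of all genes. In whole-heart RNA, fewer cardiomyocytes and less RNA per cardiomyocyte cannot be told apart, and the part of the marker level in the differences of the members was not tested. Of the other lists, atrial (4 genes), fibroblast (5), endothelial (5), smooth muscle and pericyte (5) and leukocyte markers (5), and 1 tested epicardial marker, each had 0 genes at an unadjusted or adjusted p under 0.05, with medians of 0.17, 0.06, 0.03, -0.02, -0.00 and -0.14. Their summed values overlapped between the genotypes, with 434 to 620 in KO and 449 to 566 in WT for atrial markers, 2798 to 3136 and 2890 to 3171 for fibroblast markers, 3892 to 4516 and 3923 to 4405 for endothelial markers, 2796 to 3054 and 2828 to 3245 for smooth muscle and pericyte markers, 519 to 785 and 630 to 690 for leukocyte markers and 27 to 57 and 35 to 58 for epicardial markers. No marker of these lists was at or under a value of 3 in all hearts.

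The surroundings of the members were described by the 15 genes that overlap a member or start within 10 kb of its start, which belong to 8 members. Of these, 8 were tested, and by limma 0 had an unadjusted or adjusted p under 0.05. On the opposite strand at the start of *Gata6*, the long non-coding RNA 1010001N08Rik, whose start lies 57 bases from that of *Gata6*, had values of 53, 53 and 50 in KO and 55, 65 and 70 in WT hearts. Its KO hearts were all lower (log2 fold change -0.27, unadjusted p = 0.0914), while the values of *Gata6* overlapped. AV026068, opposite to *Hand2*, had 260, 244 and 279 in KO and 293, 250 and 291 in WT hearts, with overlap (-0.09, unadjusted p = 0.308). Gm43050, opposite to and upstream of *Tbx5*, had 27, 35 and 37 in KO and 29, 24 and 22 in WT hearts (0.38, unadjusted p = 0.0947). *Cul9*, next to *Srf*, had a log2 fold change of 0.09, and 2310014F06Rik, opposite to *Tead1* and overlapping its start, had -0.17. Within *Meis1*, 2610001A08Rik, Gm37818 and 2900018N21Rik, which lie on its strand, had 0.19, -0.29 and -0.21. The other 7 neighbours, Gm26904 at *Srf*, Gm16140 and Gm16141 at *Meis1*, CT025664.1 at *Tbx20*, Gm22067 and 1110025M09Rik at *Ep300* and Gm44462 at *Tead1*, had values of at most 10 and were under the filter.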

How the data were processed

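Total RNA of 6 mouse hearts (3 *Trdn-as* KO, 3 WT) was sequenced as strand-specific single-end libraries. The authors trimmed reads (Trimmomatic 0.39), aligned them to GRCm38 (STAR 2.6.1d), removed duplicates (Picard 2.21.1) as well as multi-mapping, ribosomal and mitochondrial reads, and counted reads in exons by strand (featureCounts 1.6.5). The deposited values are a score, namely the authors' counts divided by DESeq2 (1.18.1) size factors and rounded to whole numbers. A count model was therefore not used. Reads lost as multi-mapping or shared between genes can lower the values of genes with close paralogs or overlaps.

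Here, log2(value + 1) of the 13753 genes with a mean of at least 10 was compared with limma 3.58.1 (R 4.3.3, mean-variance trend, two-sided, Benjamini-Hochberg over all genes tested, threshold 0.05), without covariates, and checked on simulated data. Gene coordinates are those of the table, exon lengths come from GENCODE M21, and read totals were estimated from the pattern of whole numbers that a size factor leaves. Estimates of reads cover counting error only. Figures were drawn with matplotlib 3.10.9 in Python 3.11.15.

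Members and lists were chosen with earlier results of these data known. All members were named, with the *Trdn-as* and *Trdn* genes, relatives and direct partners of the members, list genes at an unadjusted p under 0.05 and annotated neighbours, and cell type markers as summed levels. The values of 1 gene covered by this rule are not reported here. Alternatives were other filters (a total above 1, at least 10 in each sample), scalings (median of ratios, equal totals), pseudocounts (0.1, 5), no variance trend, a replicate block and leaving out each sample. Promoter windows came from RefSeq (GRCm38.p6).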

Additional observations from a re-analysis of the deposited data

How the results depend on the processing

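Under the 14 alternatives run, 0 members passed an adjusted p of 0.05 in limma, and the log2 fold changes of *Nkx2-5* (-0.42 to -0.26), *Tbx20* (-0.17 to -0.09) and *Tead1* (-0.12 to -0.06) stayed below 0. The unadjusted p was under 0.05 in 12 of them for *Nkx2-5*, in 10 for *Tbx20*, in 1 each for *Tead1* (without WT replicate 1) and *Gata4* (without WT replicate 3), and in 0 for the other members. *Ep300* changed sign when all libraries were scaled to the same total (0.0065), and lay between -0.058 and 0.031 when single hearts were left out, and *Hand2* then lay between -0.033 and 0.076.

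Counts of genes at an unadjusted p under 0.05 moved as follows. With no filter beyond a total above 1, the targets of TEAD and YAP had 2. Targets of GATA4, NKX2-5 and TBX5 then had 5 and targets of SRF 4. With equal totals, targets of SRF had 2, cardiomyocyte markers 2 and smooth muscle and pericyte markers 1. Without the mean-variance trend, members had 1, partners and cofactors 0, targets of GATA4, NKX2-5 and TBX5 0, cardiomyocyte markers 0 and the neighbours 2. With the replicate block, partners and cofactors had 2, targets of TEAD and YAP 3 and cardiomyocyte markers 3. Hearts of the same number are not described as related, and their deviations from the group means correlated at 0.048, -0.068 and -0.028, and the count over all genes at an adjusted p under 0.05 was 4 with the replicate block as without it. The cause of these shifts was not tested.

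With single hearts left out, where a group of 2 remains, counts ranged from 0 to 3 for members. They ranged from 1 to 5 for paralogs and further cardiac factors and from 0 to 3 for partners and cofactors. For targets they ranged from 0 to 7 (GATA4, NKX2-5 and TBX5), 1 to 3 (TEAD and YAP) and 2 to 4 (SRF). They ranged from 0 to 6 for cardiomyocyte markers and from 0 to 1 for atrial, fibroblast, endothelial and leukocyte markers. Smooth muscle and pericyte markers had 0 to 2 and the neighbours 0 to 1. The number of hearts, 3 per genotype, and at most 3.62 M counted reads per library limit the precision, and the intervals of the members state it for each gene before any adjustment over all genes.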
